A study of Mus musculus with 10 samples.

Results

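Mice carrying lung tumours were given SHP099 alone or SHP099 together with SX682, and the cells of their tumour nodules were compared cluster by cluster by single-cell RNA sequencing. The question was what CXCR1/2 blockade adds to SHP2 inhibition in each cell type. The comparison took the 12594 cells of 3 mice given both drugs (called Combo, labelled SHP099+SX682) and the 9162 cells of 3 mice given SHP099, 21756 of the 44986 cells in the single-cell data. Tumours had been grown in syngeneic mice from KP cells, a transplanted lung tumour line that reached the lung through a vein, and every mouse was treated for 11 days. A further 3 mice given SX682 and 3 given vehicle entered the same fits and are quoted as reference. Strain, age and sex of the mice were not given in the sources used here. Members of the comparison were chosen by the mouse label of each cell, and UMIs (counted transcript molecules) were summed per mouse within each of the 33 deposited clusters. In 27 clusters each of the 6 mice had 10 or more cells, and these clusters were tested.

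SHP2, the product of Ptpn11, is a tyrosine phosphatase that couples growth factor receptors to RAS and ERK, and SHP099 holds it in its closed, inactive form. CXCR1 and CXCR2 are chemokine receptors of neutrophils. Their ligands in the mouse include Cxcl1, Cxcl2, Cxcl3 and Cxcl5, which tumour and myeloid cells release and which draw neutrophils out of the blood. SX682 blocks both receptors, so its direct targets sit on neutrophils and on other cells that carry either receptor. SHP099 can act in tumour cells and in immune cells.

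Clusters carry numbers only and were called "-like" after marker genes. The 27 tested clusters comprised 1 B cell, 5 T cell (2, 3, 5, 8 and 9), 2 NK cell (6 and 7), 2 classical monocyte (12 and 13), 2 macrophage (15 and 25), 1 alveolar macrophage (26), 3 dendritic cell (17 to 19), 2 tumour (21 and 23) and 6 neutrophil clusters (28 to 33), and 3 that stayed unnamed (4, 14 and 27). Clusters 10 and 11 (endothelial-like), 16 (macrophage-like), 20 (fibroblast-like), 22 (unnamed) and 24 (alveolar-type-2-like) had a Combo or SHP099 mouse with 7 or fewer cells and were not tested for genes. Combo mice gave 4239, 5421 and 2934 cells and SHP099 mice 3789, 3084 and 2289. The median UMI count per cell was lower in every Combo mouse than in every SHP099 mouse in 20 of the 27 tested clusters and higher in 0. Each treatment was 1 pool of hashtagged cells in 1 capture, so treatment and capture cannot be told apart in any result that follows. Of 21615 barcodes, 141 occurred in both captures.

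The plainest difference between Combo and SHP099 mice was the share of cells in tumour-like cluster 21, led by the gut epithelial genes Lypd8, Lgals4 and Prap1. It held 3.02, 2.93 and 4.91% of the cells of the Combo mice (128, 159 and 144 cells) and 0.818, 0.681 and 0.655% of those of the SHP099 mice (31, 21 and 15 cells). The groups did not overlap. The means were 3.62% ± 1.12 and 0.718% ± 0.0876 (SD, n = 3), a log2 difference of 2.32 ± 0.41 (SE) with an adjusted p of 0.00149 in edgeR's quasi-likelihood test on cell counts. SX682 mice had 3.29% ± 1.06 and vehicle mice 10.3% ± 3.74. The other tumour-like cluster, 23, held 3.33, 4.80 and 3.20% against 1.24, 2.04 and 1.83%, which did not overlap but did not pass (log2 1.15 ± 0.44, adjusted p 0.158, edgeR). Both tumour-like clusters together made up 7.40% ± 0.93 of Combo and 2.42% ± 0.34 of SHP099 cells (SD, n = 3), against 6.59% in SX682 and 18.3% in vehicle mice.

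Alveolar macrophages, the resident macrophages of the air spaces, also took a larger share. Cluster 26 held 12.7, 12.7 and 8.79% of Combo and 6.68, 4.83 and 4.15% of SHP099 cells (log2 1.12 ± 0.31, adjusted p 0.0387, edgeR), all 3 Combo mice above all 3 SHP099 mice. Fibroblast-like cluster 20 held 0.896, 0.627 and 0.682% against 0.185, 0.162 and 0.175% (log2 2.06 ± 0.60, adjusted p 0.0387), resting on 4 to 7 cells in each SHP099 mouse. These were the 3 of 33 clusters called (9.09%). The exact permutation test of 3 against 3 mice gave p = 0.1 for each of them, the smallest value it can give. The call for cluster 21 held in 16 of 16 alternative analyses. Those for clusters 20 and 26 ended when any of several single mice was left out (adjusted p up to 0.156), among them Combo mice 1 and 2 and SHP099 mice 2 and 3. With both tumour-like clusters taken out of the total, clusters 20 and 26 were still called. None of the 5 leading genes of cluster 21, and none of those of cluster 26, was called between the groups. B-cell-like cluster 1 had 9.06% in Combo and 15.9% in SHP099 mice on average (adjusted p 0.202), and T-cell-like cluster 2 had 6.06, 6.71 and 6.2% against 12, 8.33 and 12.1% (adjusted p 0.281). Live cells had been enriched on magnetic beads before capture, which can set such shares.

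**Figure D1:**
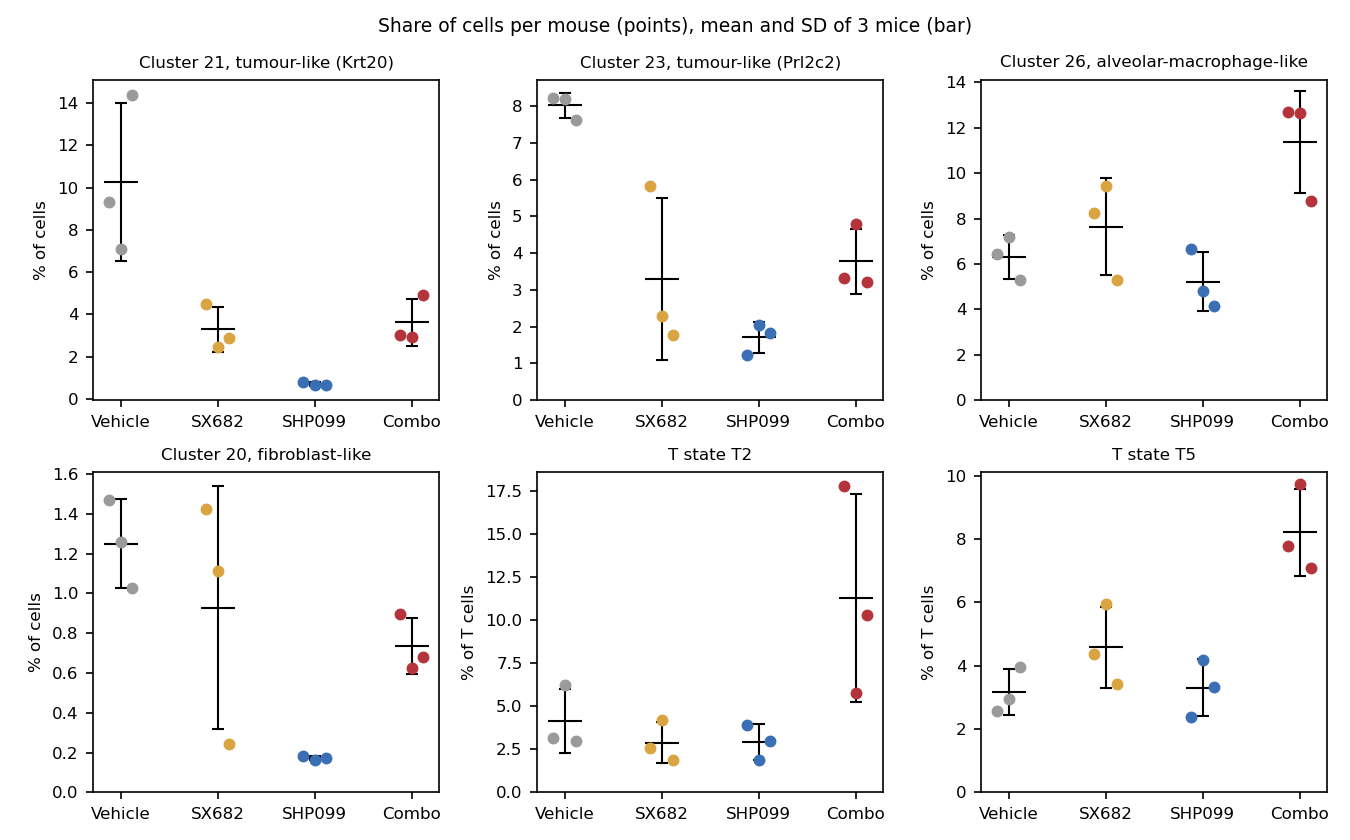
Share of cells per mouse in percent (points, 3 mice per treatment), with the mean and SD as bars, for clusters 21, 23, 26 and 20 (percent of all cells) and T cell states T2 and T5 (percent of T cells). The 3 Combo mice lie above the 3 SHP099 mice in each panel. In cluster 21 the Combo mean of 3.62% lies near the SX682 mean of 3.29%, and in T5 the Combo mean of 8.2% is above the other 3 means.

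Within T cells, 2 of the 9 deposited states (22.2%) took a larger share in Combo mice. State T2, CD8 cells led by the effector genes Ccl5, Gzma, Cx3cr1, Gzmk and Klrg1, made up 17.8, 5.79 and 10.3% of T cells in Combo and 3.94, 1.86 and 2.97% in SHP099 mice (log2 1.94 ± 0.47, adjusted p 0.00556, edgeR). The lowest Combo mouse was above the highest SHP099 mouse. SX682 and vehicle mice averaged 2.89 and 4.13%. State T5, dividing cells led by Pclaf, Ube2c and Stmn1, made up 7.79, 9.74 and 7.09% against 2.39, 4.19 and 3.32% (log2 1.32 ± 0.33, adjusted p 0.00556), again without overlap. Both calls held in 16 of 16 alternatives, and the exact permutation p was 0.1 for each, the smallest possible. Of T2 cells 81.5% lay in cluster 8, and of T5 cells 90.9% in cluster 5. State T1, led by the naive cell genes Dapl1 and Lef1, averaged 4.95% in Combo and 9.37% in SHP099 mice (log2 -0.93, adjusted p 0.146), and it passed when SHP099 mouse 2 was left out. T cells as a whole were 15.8% ± 3.13 of Combo and 21.6% ± 3.17 of SHP099 cells. The 6 neutrophil states, clusters 28 to 33, gave 0 calls (0%). The lowest adjusted p among them was 0.317, limma on logit shares also made 0 calls, and neutrophils as a whole were 26.5% ± 4.07 against 30.8% ± 4.69 of cells (SD, n = 3).

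Gene tests were run in each cluster with edgeR's quasi-likelihood test, and a call is a Benjamini-Hochberg adjusted p below 0.05 within that cluster. Over the 27 clusters 617 of 113250 tests were called, 409 higher and 208 lower in Combo. They covered 447 genes, 352 of them in 1 cluster alone. Calls in several clusters come from the same 6 mice and the same 2 captures and are not independent. Leaving out Combo mouse 1, 2 or 3 or SHP099 mouse 1 brought the total to 406, 326, 305 and 351.

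The largest numbers of calls were in tumour-like cluster 23, B-cell-like cluster 1 and NK-cell-like cluster 6. Cluster 23 had 173 calls (1.74% of the genes tested, 0.775% higher and 0.966% lower), and tumour-like cluster 21 had 26 (0.284%, with 0.142% in each direction). Cluster 1 had 123 (2.11%, 1.48% higher and 0.635% lower) and cluster 6 had 105 (2.64%, 2.16% higher and 0.477% lower). Among T-cell-like clusters, cluster 2 had 23 calls (0.494%), cluster 3 had 21 (0.538%), cluster 8 had 19 (0.588%), cluster 5 had 3 (0.0702%) and cluster 9 had 1 (0.0696%). Among neutrophil clusters, 30 had 39 calls (0.82%, 0.778% higher and 0.0421% lower), 33 had 25 (1.71%), 28 had 8 (0.25%), 31 had 2 (0.09%) and 29 had 1 (0.0397%). Macrophage-like clusters 15 and 25 had 17 (0.192%) and 5 (0.0586%), cluster 26 had 15 (0.195%), monocyte-like cluster 13 had 6 (0.209%), and dendritic clusters 19 and 17 had 4 (0.0718%) and 1 (0.0287%). Clusters 4, 7, 12, 14, 18, 27 and 32 had 0 calls (0%) in edgeR. In these 7 clusters, in that order, 68, 182, 229, 316, 345, 8 and 88 genes had an unadjusted p below 0.05, and with Combo and SHP099 mice fitted alone clusters 12 and 32 had 16 and 14 calls. Cluster 12 had 18 calls without SX682 mouse 3 and 0 or 1 without any other 1 mouse, and cluster 32 had 3 without vehicle mouse 2. DESeq2 made 7, 4, 0, 1, 2, 0 and 0 calls in the 7 clusters. With T cells summed over their deposited table, 138 genes were called (1.66%, 1.01% higher and 0.648% lower). All neutrophils summed gave 88 (1.18%, 1.02% higher and 0.16% lower).

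**Figure D2:**
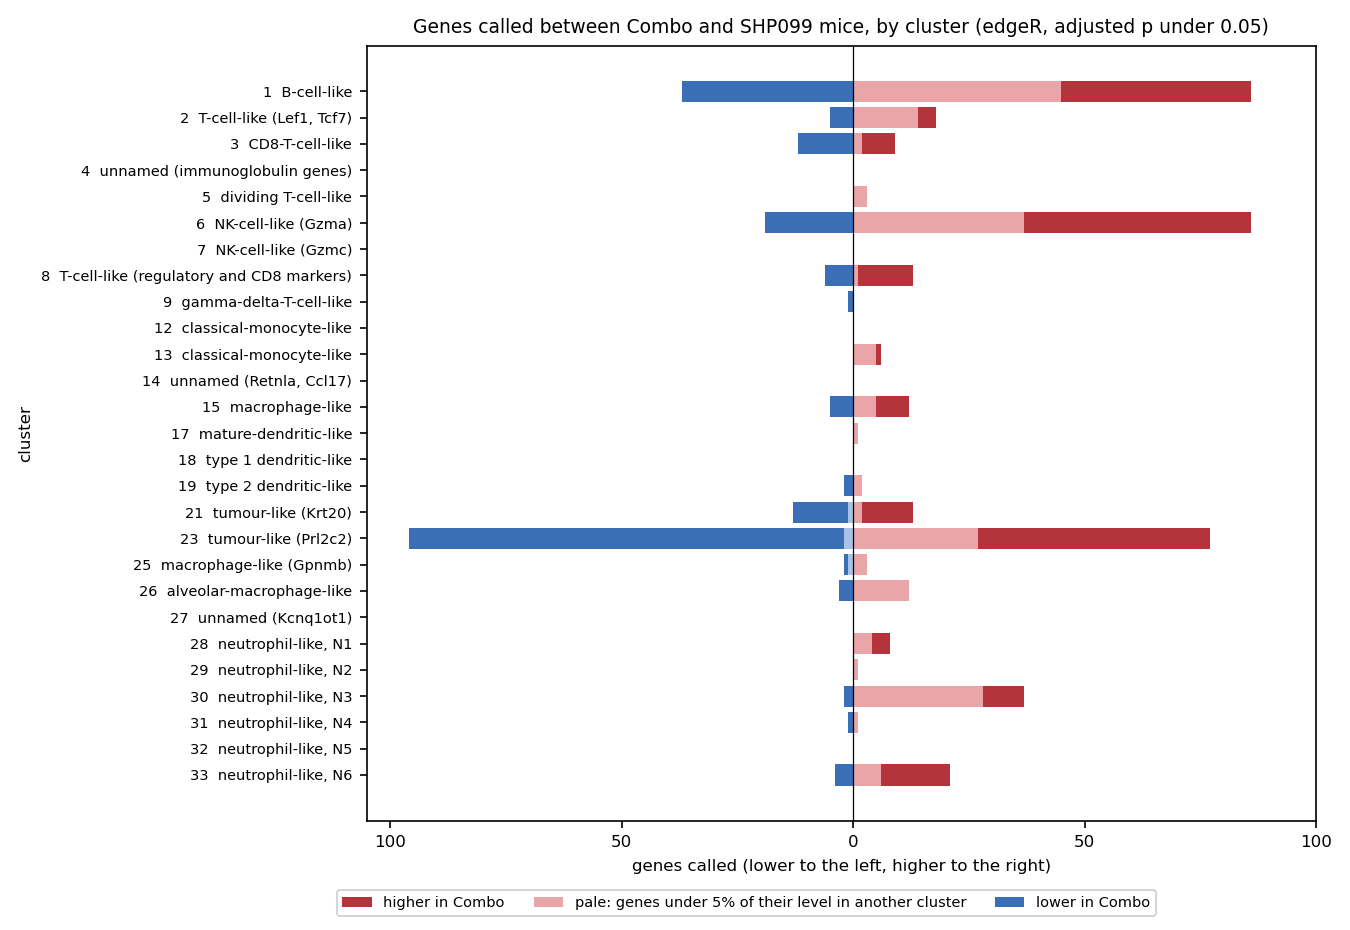
Number of genes called between Combo and SHP099 mice in each of the 27 tested clusters (bars, higher to the right and lower to the left). Pale bars are called genes whose level in the cluster is under 5% of their level in another cluster. Cluster 23 has 96 lower calls, the most of any cluster, and in cluster 26 all 12 higher calls are pale.

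A set of genes was higher in Combo across unrelated cell types. Scgb1a1, the main secretory protein of airway club cells (chromosome 19, 9083636 to 9087958, mm10), was called higher in 14 of the 21 clusters in which it was tested. Of its 109741 UMIs in all cells, 85.41% were in alveolar-type-2-like cluster 24. That cluster had 7 of 7 alveolar type 2 markers raised and also 6 of 6 airway markers, Scgb1a1 among them. In neutrophil-like cluster 28 it stood at 112, 207 and 150.2 CPM (UMI counts relative to all UMIs of the cluster in that mouse, here on unscaled totals) in Combo mice and at 10.1, 1.86 and 0 in SHP099 mice, and in neutrophil-like cluster 29 at 89.1, 185 and 133 against 0, 0 and 0. SX682 mice had 193, 205 and 190.0 in cluster 29, so both captures from SX682-treated mice were high. The order differed in cluster 1, where Combo mice had 215, 142 and 149 and SHP099 mice 182, 0 and 465. In cluster 2 Combo mouse 2 alone reached 6944, with the other Combo mice at 99.98 and 60.5. Over a list of 8 alveolar and airway genes the summed level was above every SHP099 mouse in all 3 Combo mice in 20 of the 27 clusters and below in 0.

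**Figure D3:**
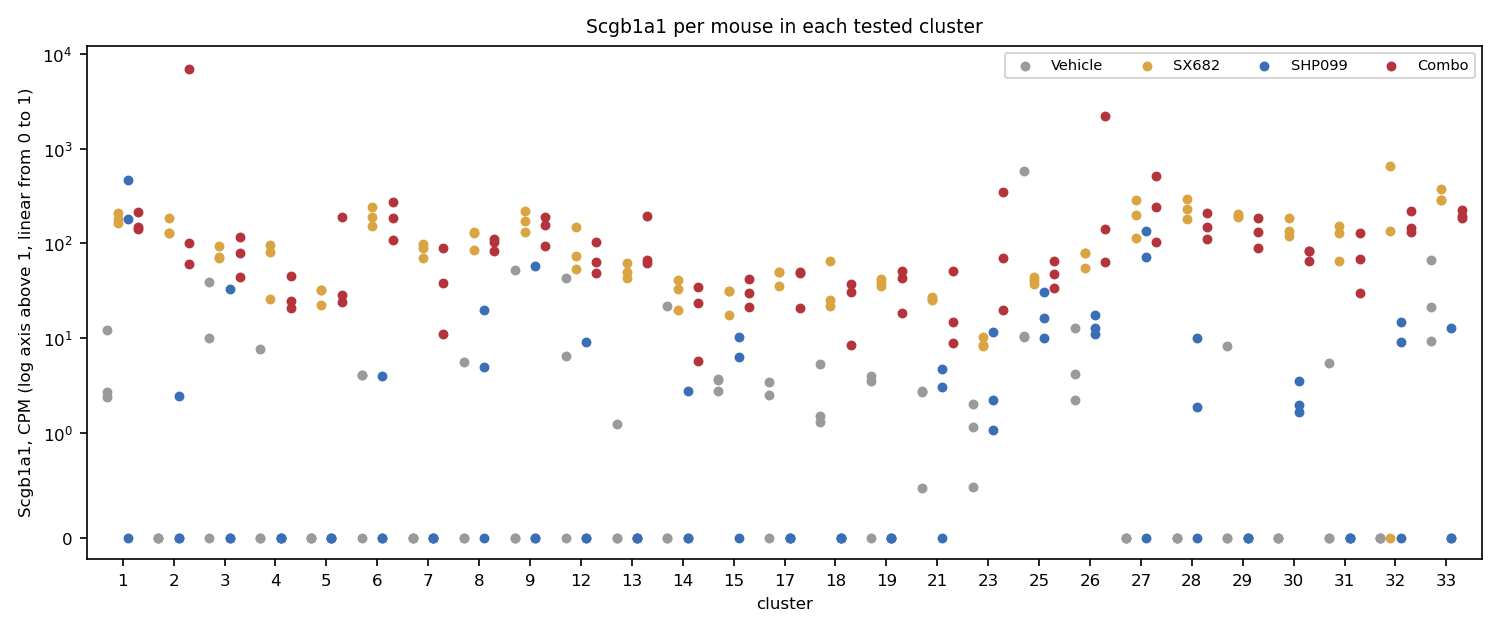
Scgb1a1 in CPM on unscaled totals for each mouse (points) in each tested cluster, on an axis that is logarithmic above 1 and linear from 0 to 1. Combo and SX682 mice lie mostly above 10 CPM, and most SHP099 and vehicle mice lie below them or at 0, with clusters 1, 25 and 27 as exceptions.

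Other genes called in several clusters followed their source cells less plainly. Tm4sf1, highest in lymphatic-endothelial-like cluster 11 and abundant in tumour-like cells, and Krt8, highest in cluster 21, were each called higher in 4 clusters. Immune genes included Ly6a, Ifitm1 and Cebpb (5 clusters each) and Ccl5, Cxcl2, Cd74 and Clec4n (4 each). Rpl29, Pfn1 and Actb, which encode a ribosomal protein, an actin-binding protein and actin, were called in 5, 5 and 4. The genes called lower in 2 or more clusters numbered 16, against 77 called higher in 2 or more, and included Gm42418, Lars2, Pabpc1, Rpl37a, Rps27, Hspa1a and Hint2. Altogether 203 of the 617 calls, 199 of them higher, were of genes under 5% of their level in another cluster, the range in which free RNA of other cells could supply the UMIs. With such genes left out and the p-values adjusted again over the remaining genes of each cluster, 277 were called. The summed level of 12 tumour epithelial genes lay above every SHP099 mouse in all 3 Combo mice in 9 clusters and below in 1, and that of 8 neutrophil genes in 7 and 1. Their part in any single call was not tested.

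Tm4sf1, which encodes a membrane protein of the tetraspanin-like family (chromosome 3, 57285611 to 57301988), was called higher in both tumour-like clusters. In cluster 21 it stood at 535, 713 and 1137 CPM (on TMM-scaled totals, as all CPM below) in Combo and at 3.04, 149.5 and 30.1 CPM in SHP099 mice. Every Combo mouse was above every SHP099 mouse (log2 3.80 ± 0.55, adjusted p 0.014, edgeR), as the naming rule for the largest folds required. Among all genes tested in cluster 21, 17.16% did not overlap. In cluster 23 the values were 1205, 1219 and 1737 CPM against 488, 243 and 294 CPM (log2 2.03 ± 0.27, adjusted p 0.00303). SX682 mice averaged 856 and 1436 CPM and vehicle mice 1033 and 1524 CPM in clusters 21 and 23, so for this gene the SHP099 mice stood apart and the Combo mice lay near mice that had received no SHP099. The calls held in all 20 and 21 alternatives run.

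CXCR2 ligands were higher in the tumour-like cells of Combo mice for 1 gene in each cluster. Cxcl5 in cluster 21 stood at 209, 219 and 323 CPM in Combo and at 33.5, 68.4 and 25.1 CPM in SHP099 mice (log2 2.57 ± 0.40, adjusted p 0.015). Here the Combo mice stood apart, since SX682 mice averaged 64.7 and vehicle mice 33.1 CPM. Without SHP099 mouse 1 or 3 the call ended (adjusted p up to 0.0849). Cxcl1 in cluster 23 stood at 293, 220.1 and 256 CPM against 73.9, 113 and 75.7 CPM (log2 1.52 ± 0.36, adjusted p 0.0444). That call ended in 9 of 21 alternatives, with each Combo, SHP099 or vehicle mouse left out in turn (adjusted p up to 0.141). The rest of the ligands did not pass. In cluster 21, Cxcl1 had 85.6, 85.2 and 44.5 against 9.13, 4.27 and 25.1 CPM (log2 2.58, adjusted p 0.13), Cxcl3 had 199.8, 205 and 205 against 36.5, 145 and 40.2 CPM (log2 1.497, adjusted p 0.13), and Cxcl2 had 6304, 5427 and 6037 against 3407, 4298 and 3237 CPM (log2 0.70 ± 0.23, adjusted p 0.203). In cluster 23, Cxcl5 had a log2 difference of 0.69 (adjusted p 0.19), Cxcl2 of 1.26 (0.239) and Cxcl3 of 0.18 (0.89). Cxcl5 there averaged 409 CPM in Combo, 252 in SHP099, 126 in SX682 and 71.3 in vehicle mice. Combo and SHP099 mice overlapped, and both means were above those of SX682 and vehicle mice. Of the 7 genes on the ligand list, 5 were tested in cluster 21 and 4 in cluster 23, and all had log2 values above 0. Their medians were 1.497 and 0.98, against 0.01 and -0.01 over all genes tested in those clusters. Over chromosome 5 genes of average log2 CPM of 5 or more, the chromosome of these ligands, the medians were 0.25 and 0.26. Cxcl3 in both clusters and Cxcl2 in cluster 23 were under 5% of their level in another cluster.

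Promoters of 3 of these ligands are shown because the genes lie near each other on chromosome 5 and share their longest common stretch near the start site. Each line holds the 250 bases before the RefSeq start of the gene (GRCm38.p6, plus strand), at chr5:90890995-90891244 for Cxcl1, chr5:90903649-90903898 for Cxcl2 and chr5:90785851-90786100 for Cxcl3. Capitals mark GGGAATTTCCC, the longest run of letters common to all 3 windows, which has the form of an NF-kB site.
Cxcl1: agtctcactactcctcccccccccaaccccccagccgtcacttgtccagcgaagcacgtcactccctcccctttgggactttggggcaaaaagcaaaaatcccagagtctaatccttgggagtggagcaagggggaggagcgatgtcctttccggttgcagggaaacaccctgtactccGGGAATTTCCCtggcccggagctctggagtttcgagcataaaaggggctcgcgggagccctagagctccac
Cxcl2: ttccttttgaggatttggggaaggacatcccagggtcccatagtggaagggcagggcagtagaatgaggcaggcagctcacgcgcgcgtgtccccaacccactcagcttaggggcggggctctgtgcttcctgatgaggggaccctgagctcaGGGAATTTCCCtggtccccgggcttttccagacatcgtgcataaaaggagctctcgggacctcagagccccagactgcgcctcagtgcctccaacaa
Cxcl3: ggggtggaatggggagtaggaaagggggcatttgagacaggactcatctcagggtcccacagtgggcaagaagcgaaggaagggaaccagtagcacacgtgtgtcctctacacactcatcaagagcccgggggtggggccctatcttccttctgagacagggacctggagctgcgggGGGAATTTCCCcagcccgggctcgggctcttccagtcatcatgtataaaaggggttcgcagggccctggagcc
The run starts 71, 97 and 73 bases before the start of Cxcl1, Cxcl2 and Cxcl3. Searched on both strands (GGGAAATTCCC on the other), it was found in 14 of 32851 windows of this length (0.0426%) and in 3 of the 6 ligand genes that have a window, Cxcl15, Ppbp and Pf4 being without it. Cxcl5 was not among the windows. The run was chosen as common to these 3 windows, so its presence in them was fixed in advance. The 3 genes are close relatives that lie near each other, and a match is a description of letters only.

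Among other called genes of cluster 21, Cxcl16, a chemokine for CXCR6-bearing T cells, stood at 53.8, 51.7 and 56.1 CPM in Combo and 12.2, 4.27 and 10.0 CPM in SHP099 mice (log2 2.54 ± 0.44, adjusted p 0.0215). SX682 and vehicle mice averaged 34.4 and 45.8 CPM, closer to Combo. Ier3, an early response gene downstream of ERK, had 1121, 897 and 1094 CPM against 542, 551 and 627 CPM (log2 0.86 ± 0.14, adjusted p 0.0167). It was the 1 gene called among 15 tested genes of an ERK output list, of which 12 had log2 values above 0 with a median of 0.26. Ly6c1, a membrane protein gene of the Ly6 family, had 87.8, 54.4 and 95.3 CPM in Combo and 0 CPM in each SHP099 mouse. Sparc, a matrix protein gene, was higher (log2 1.34, adjusted p 0.0316, edgeR), as was Prl2c2, the leading gene of cluster 23 (231, 222 and 124 against 42.6, 4.27 and 35.1 CPM, adjusted p 0.0411). SX682 and vehicle mice averaged 622 and 916 CPM of Prl2c2, above the Combo mean of 192 CPM. The levels of Ly6c1 and Sparc in cluster 21 were under 5% of those in another cluster. Ly6c1 was highest in endothelial-like cluster 10. What free RNA of other cells adds to these calls was not tested. Lower genes included Hint2, which encodes a mitochondrial hydrolase (61.5, 40.8 and 33 against 146, 94.0 and 126 CPM, log2 -1.47 ± 0.27, adjusted p 0.0274), Ms4a8a (log2 -1.67), Clca4a (log2 -2.29) and Myo1a, a brush border myosin (log2 -1.26). Ttr, the transthyretin gene, was called lower although its groups overlapped. Apart from Tm4sf1, each call named here for cluster 21 ended when at least 1 single Combo or SHP099 mouse was left out. Without Combo mouse 3 or SHP099 mouse 1, 5 genes were called in cluster 21, 14 without Combo mouse 2 or SHP099 mouse 2, and 17 without SHP099 mouse 3 or vehicle mouse 2. SHP099 sums there came from 15 to 31 cells. Macrophage genes moved with the groups as well: all 15 genes of a lipid and complement list had log2 values above 0 in cluster 21 (0 called, median 2.05), and their part in these results was not tested.

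In cluster 23, 1 of 10 tested genes of the tumour epithelial list was called, 4 had log2 values above 0, and the median was -0.14. That gene, Cdh1, which encodes E-cadherin, the adhesion protein of epithelial junctions (chromosome 8, 106603351 to 106670246), stood at 128, 133 and 131 CPM in Combo and at 234, 218 and 214 CPM in SHP099 mice (log2 -0.76 ± 0.11, adjusted p 0.0064). SX682 and vehicle mice averaged 138 and 135 CPM, so again the SHP099 mice stood apart. Klf4, a transcription factor of epithelial differentiation, was named from a list of immediate early genes. It had 99.11, 113 and 91.8 against 183, 182 and 160.1 CPM (log2 -0.78 ± 0.11, adjusted p 0.00444, edgeR). Both calls held in 21 of 21 alternatives, as did that of Hint2 (log2 -1.35 ± 0.21, adjusted p 0.0064). Chosen after the values were seen, the endoderm transcription factor genes Foxa2 and Hnf4a fell by 1.00 and 0.85 on the log2 scale, with Foxa2 at 32.1, 32.1 and 32.1 CPM against 60.6, 67.3 and 63.8 CPM. Vil1, a brush border gene, and Apob, the apolipoprotein of secreted lipid particles, fell by 0.93 and 1.01, and the junction genes Jup and Dsp by 0.56 and 1.93, all 4 likewise named after their values were seen.

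Another gene that fell in cluster 23 was H2-T23, the mouse HLA-E counterpart and ligand of NKG2A. It stood at 34.4, 44.2 and 41.1 CPM in Combo and at 83.6, 77.3 and 82.2 CPM in SHP099 mice (log2 -1 ± 0.18, adjusted p 0.0133), with SX682 and vehicle means of 44.1 and 35.1 CPM. Reads of H2-T23 can be hard to separate from those of related class I genes. It was the 1 gene called among 13 tested genes of an MHC class I list, of which 9 had log2 values above 0. Bst2, an interferon-induced antiviral tether, stood at 62.4, 65.0 and 70.2 against 145, 139 and 192 CPM (log2 -1.27, adjusted p 0.0476), and 10 of 21 alternatives ended its call, among them each of the 6 fits without a Combo or SHP099 mouse (adjusted p up to 0.131). Of 9 tested genes of a type I interferon list 2 had log2 values above 0 in cluster 23 (median -0.81) and of 16 in cluster 21 also 2 (median -1.10), where 0 were called. Isg15 in cluster 21 had 164, 217 and 158 CPM against 536, 145 and 361 CPM, so the SHP099 mice varied and overlapped with Combo (adjusted p 0.429). Ddit3, a transcription factor of the integrated stress response, had 35.0, 17.5 and 24.6 against 48.4, 69.6 and 139.6 CPM (log2 -1.80, adjusted p 0.0141), and Atf4, upstream of it and named after its value was seen, fell by 0.66. Hspa1b fell by 1.02, the 1 gene called among 11 of a heat shock list (2 above 0, median -0.22). The call of H2-T23 ended without Combo mouse 3 (adjusted p 0.0543), that of Ddit3 without Combo mouse 2 or 3, and that of Hspa1b without Combo mouse 2 or 3 or SHP099 mouse 1 or 2. Without Combo mouse 1, 2 or 3 or SHP099 mouse 1 or 2 there were 112, 61, 35, 62 and 76 calls in cluster 23.

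Genes called higher in cluster 23 included Tyms, the thymidylate synthase gene of DNA replication, on chromosome 5 (log2 0.80, adjusted p 0.0492, edgeR), although of 22 cell cycle genes 15 had log2 values above 0 and 1 was called (median 0.24). Others were genes of neutrophils and macrophages, such as Wfdc17 (log2 2.27, adjusted p 0.0124), Il1rn (1.08, adjusted p 0.0209) and Chil3 (2.24, adjusted p 0.0444). The calls of Tyms and Chil3 ended in 9 alternatives each (adjusted p up to 0.16 and 0.166), with Combo mouse 1 or 2 or SHP099 mouse 2 left out among them, that of Il1rn without Combo mouse 3 or SHP099 mouse 1 or 2, and that of Wfdc17 without SHP099 mouse 1. Of the 77 higher calls 27 were of genes under 5% of their level in another cluster. Beside them, 8 neutrophil genes summed to 3864, 2945 and 4833 CPM in Combo and to 1522, 1054 and 2584 CPM in SHP099 mice within cluster 23. With genes under 5% of their level elsewhere left out and p-values adjusted again, 118 genes were called in cluster 23 and 19 in cluster 21.

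**Figure D4:**
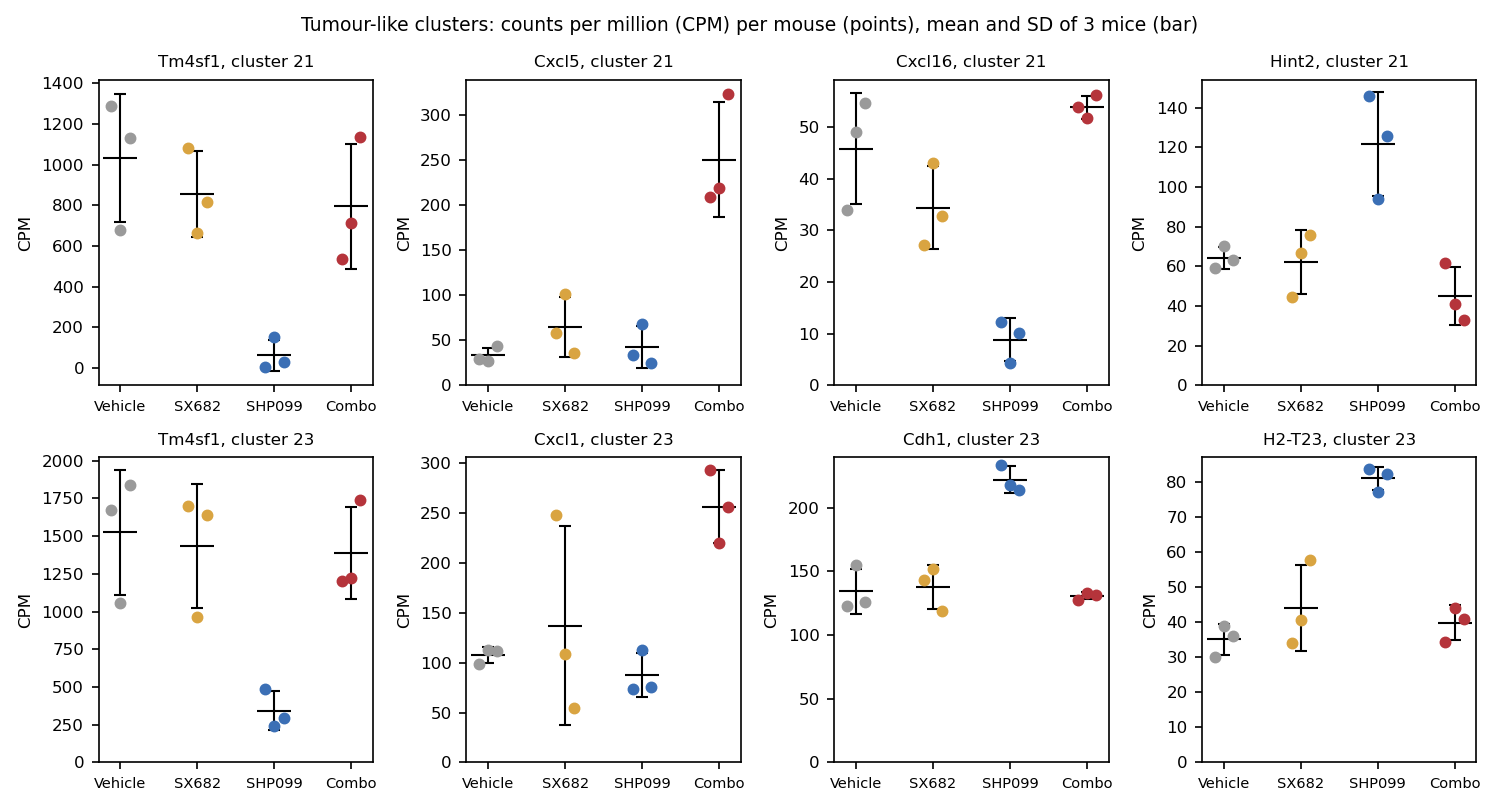
Level per mouse in CPM (points) with mean and SD of 3 mice (bars) for Tm4sf1, Cxcl5, Cxcl16 and Hint2 in cluster 21 and Tm4sf1, Cxcl1, Cdh1 and H2-T23 in cluster 23. For Tm4sf1, Cdh1 and H2-T23 the SHP099 mice lie apart from the other 3 treatments, while for Cxcl5 the Combo mean lies above the other 3.

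Called genes of the tumour-like clusters were unevenly placed on the chromosomes, a pattern chosen for description after the values were seen. Of the 75 genes called higher in cluster 23 that have a position, 27 were on chromosome 5, which held 6.60% of the genes tested. Among all tested genes of that chromosome 501 of 641 had log2 values above 0 in cluster 23 and 414 of 605 in cluster 21. For genes of average log2 CPM of 5 or more, the median log2 difference on chromosome 5 was 0.26 in cluster 23 (291 genes) and 0.25 in cluster 21 (306 genes). Relative to the mean of the 12 mice, the median chromosome 5 level in cluster 23 was 0.10, 0.08 and 0.06 in Combo and -0.21, -0.22 and -0.12 in SHP099 mice on the log2 scale, while the 6 SX682 and vehicle mice lay between -0.01 and 0.09. In cluster 21 it was 0.08, 0.04 and 0.00 against -0.21, -0.10 and -0.18. Ptpn11, Tyms and the ligand genes Cxcl1, Cxcl2, Cxcl3 and Cxcl5 are on chromosome 5. What this regional difference comes from was not tested.

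The end of chromosome 10, from 120 Mb on, moved the other way. Of 73 tested genes there 54 had log2 values below 0 in cluster 23 (median -0.40). Of the 96 genes called lower 11 lay there, among them Ddit3, Os9, Nab2, Mars, Pip4k2c and Naca, with starts from 121587380 to 128035575. Over all 9936 genes tested in cluster 23, 0.966% were called lower. In cluster 21, 46 of 70 were below 0 (median -0.27). SHP099 mice lay at 0.20, 0.10 and 0.61 in cluster 23 for the 30 well-expressed genes of this stretch, mouse 3 farthest from the rest, and Combo mice at -0.01, -0.13 and 0.00. Chromosomes 6 and 17 had medians of -0.17 and 0.14 in cluster 23 and -0.20 and 0.16 in cluster 21. Over the chromosome 5 genes of average log2 CPM of 5 or more in each of the other tables the median was -0.02 in cluster 1 (253 genes), 0.02 in the T cell table (228), -0.02 in neutrophils (222) and -0.02 in cluster 26 (229).

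**Figure D5:**
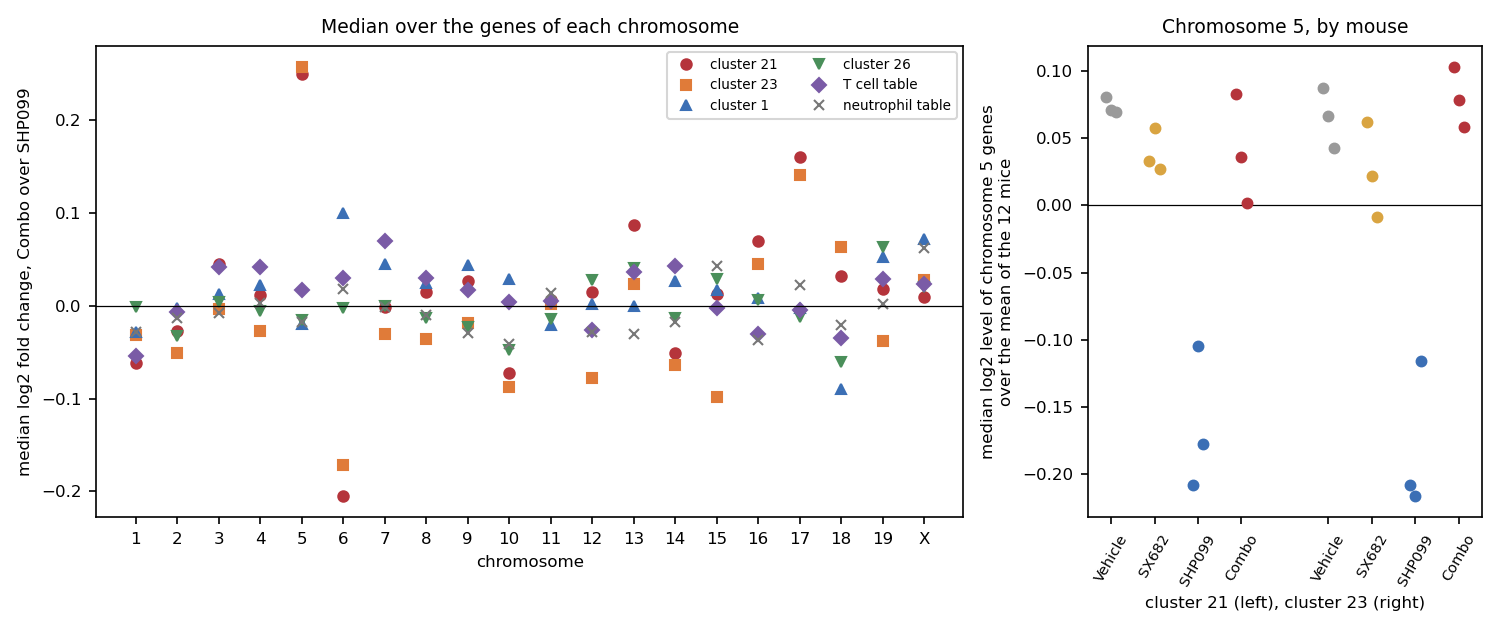
Median log2 fold change of Combo over SHP099 mice per chromosome (left, points by cluster or table) and, for chromosome 5, the median log2 level of each mouse over the mean of the 12 mice (right). Chromosome 5 lies at 0.25 and 0.26 in tumour-like clusters 21 and 23 and near 0 in the immune cells shown, and the 6 SHP099 values lie below all others.

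In neutrophils, which carry the receptors that SX682 blocks, neither receptor gene was called. Cxcr2 stood at 226, 191 and 176 CPM in Combo and at 229, 217 and 258 CPM in SHP099 mice over all neutrophils (log2 -0.24, adjusted p 0.549) and was called in no cluster by edgeR. Cxcr1 had 20.98, 18.4 and 24.3 against 11.4, 5.80 and 13.8 CPM (log2 1.10, adjusted p 0.142, edgeR), with no overlap but no call. Of all genes tested over all neutrophils 18.4% did not overlap. Cxcl2, which neutrophils also release, differed by 0.23 (adjusted p 0.533) and Ptpn11 by -0.04 (adjusted p 0.973). Of the 88 genes called over all neutrophils, 64 were under 5% of their level in another cluster and 24 were not. With such genes left out and p-values adjusted again over the rest, 3 genes were called. With the sums of all 12 mice in the fit, SX682 and vehicle mice included, thinned to the smallest UMI total among them, 12 were called. With single mice left out the count ran from 42 (without SHP099 mouse 1) to 106.

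The higher calls in neutrophils were led by keratins and other genes of the tumour-like clusters. Krt8 stood at 90.1, 116 and 84.1 CPM in Combo and at 21.5, 22.6 and 33.9 CPM in SHP099 mice in all neutrophils together (log2 1.95, adjusted p 3.36e-05). Lgals4, Gsta4 and Rbp4 differed by 2.52, 3.19 and 2.58 on the log2 scale. Of 9 tested genes of a tumour epithelial list 6 were called higher (median 1.83), although the sum over the 12 listed genes overlapped between the groups (635 to 1187 CPM in Combo, 633 to 1323 CPM in SHP099 mice). Ifitm1, an interferon-induced membrane protein gene expressed by neutrophils, rose in cluster 28 (674, 979 and 742 against 346, 354 and 230 CPM, log2 1.33, adjusted p 0.0039) and in cluster 30 (log2 0.82, adjusted p 0.0112). H2-Q7, a nonclassical class I gene, had 175, 80.1 and 76.0 against 36.7, 27.8 and 58.3 CPM over all neutrophils (log2 1.49, adjusted p 0.00756), but its near copy H2-Q6 also passed (1.30) and their reads may be split between them. These calls ended with equal UMI totals for Ifitm1 and H2-Q7, and without Combo mouse 2 for Ifitm1 in cluster 28, without Combo mouse 3 or SHP099 mouse 3 for Ifitm1 in cluster 30, and without SHP099 mouse 1 or 2 for H2-Q7. That of H2-Q6 ended without Combo mouse 1 or SHP099 mouse 1.

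Genes that fell in neutrophils included Stfa1, a stefin protease inhibitor of young neutrophils. In cluster 33, whose leading gene Retnlg also marks young neutrophils, it stood at 0, 27 and 31.5 CPM in Combo and at 313, 143 and 194 CPM in SHP099 mice (log2 -3.21, adjusted p 0.0123), a call that held in 20 of 20 alternatives. Stefin genes are near copies, so counts of a single one are uncertain. Sirpa, the receptor for the CD47 signal, fell in cluster 30 (238, 196 and 192 against 349, 297 and 342 CPM, log2 -0.65, adjusted p 0.0199). Its call ended in 7 of 21 alternatives (adjusted p up to 0.72), among them the fits without Combo mouse 2 or 3 and SHP099 mouse 1 or 3. Hspa1a and Hspa1b, inducible heat shock chaperone genes, fell over all neutrophils (log2 -1.83 and -1.53). No Combo mouse overlapped an SHP099 mouse for any of these 4 genes. The call of Hspa1a ended without Combo mouse 3, and that of Hspa1b without Combo mouse 1 or 3 or SHP099 mouse 2 or 3. The number of calls in cluster 33 was between 3 and 5 without SHP099 mouse 2 or 3, Combo mouse 3, SX682 mouse 2 or 3 or vehicle mouse 1 or 2, 10 without Combo mouse 2 and 43 without SX682 mouse 1. That in cluster 30 was 17, 19, 25 and 67 without SHP099 mouse 1, SHP099 mouse 2, Combo mouse 3 and vehicle mouse 1.

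T cells differed in effector and naive cell genes. Over the T cell table Gzmb, the granzyme of cytotoxic granules (chromosome 14, 56258838 to 56262260), stood at 159, 166 and 167 CPM in Combo and at 36.5, 62.7 and 73.7 CPM in SHP099 mice (log2 1.51 ± 0.30, adjusted p 0.0121). SX682 and vehicle mice averaged 138 and 88.3 CPM. Ccl5, a chemokine of effector cells, had 9467, 4531 and 9470 against 4597, 2873 and 4272 CPM (log2 1.00 ± 0.20, adjusted p 0.0158), where Combo mouse 2 lay just below SHP099 mouse 1. Klrc1, which encodes NKG2A, the receptor for H2-T23, had 112, 64.4 and 99.9 against 32.6, 51.1 and 50.9 CPM (log2 1.03, adjusted p 0.024). All 11 tested genes of a cytotoxicity list had log2 values above 0 (2 called, median 0.61), as did all 8 of an effector CD8 list (1 called, median 0.79), against a median of -0.01 over all genes. These lists include leading genes of state T2, whose share differed. Gzma, Gzmk and Nkg7 did not pass, with log2 differences of 1.35, 1.44 and 0.61 (adjusted p 0.194, 0.0734 and 0.123).

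Dividing cell genes moved with state T5. Stmn1, a tubulin regulator of dividing cells, stood at 353, 486 and 534 CPM in Combo and at 279, 299 and 279 CPM in SHP099 mice (log2 0.67, adjusted p 0.0245), and Tyms (0.90) and Pclaf (0.77) rose as well. Of 22 cell cycle genes 21 had log2 values above 0 and 3 were called (median 0.40), while Mki67 had 104, 150.3 and 91.4 against 92.4, 136 and 80.8 CPM (adjusted p 0.699). Naive and memory genes went the other way, with 0 of 8 above 0, 2 called lower and a median of -0.49. Satb1, a chromatin organiser of naive T cells, stood at 231, 266 and 261 against 434, 345 and 444 CPM (log2 -0.69, adjusted p 0.0158), and S1pr1, the lymph node exit receptor, fell by 0.70. Socs3, a brake on cytokine signals, had 13.8, 36.7 and 25.7 against 53.6, 61.9 and 70.2 CPM (log2 -1.28, adjusted p 0.00774). Hspa1a fell by 1.27.

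Other cells' RNA also differed within the T cell table. Of 6 tested MHC class II genes 4 were called higher (median 1.22), and immunoglobulin genes summed to 853, 1877 and 1021 CPM in Combo and to 430, 216 and 204 CPM in SHP099 mice. Of the 138 calls 32 were of genes under 5% of their level elsewhere and 106 were not. With such genes left out and p-values adjusted again, 76 were called, and 36 with equal UMI totals. The count ran from 47 without Combo mouse 2 to 163 without SX682 mouse 1, and below 93 with any 1 of the Combo or SHP099 mice left out. The Gzmb call ended without SHP099 mouse 1, that of Klrc1 without Combo mouse 1 or 3 or SHP099 mouse 1, that of Satb1 without Combo mouse 1 or SHP099 mouse 1 or 3, and that of Stmn1 without Combo mouse 2 or 3 or any SHP099 mouse. Tyms, Pclaf and S1pr1 ended in 7, 9 and 11 of 21 alternatives (adjusted p up to 0.224, 0.226 and 0.204), and Ccl5 ended without Combo mouse 1 or 3 or SHP099 mouse 2 and Hspa1a without Combo mouse 2. The calls of Gzmb, Klrc1, Satb1 and Socs3 also ended with equal UMI totals.

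Single T cell clusters repeated parts of this. In cluster 8, which has markers of both regulatory and CD8 T cells, Klrc1 stood at 239.9, 86.3 and 216 CPM in Combo and at 52.8, 31.2 and 75.6 CPM in SHP099 mice (log2 1.81, adjusted p 0.0316). Nt5e, which encodes CD73, the ectoenzyme that makes adenosine, had 37.5, 27.2 and 32 against 88.0, 125 and 81.0 CPM (log2 -1.56, adjusted p 0.0155). All 8 tested cytotoxicity genes had log2 values above 0 in cluster 8 (1 called, median 1.11) and 0 of 6 T cell inhibitory receptor genes did (0 called, median -0.67). Both calls ended without Combo mouse 1 or SHP099 mouse 2, that of Klrc1 also without Combo mouse 3 and that of Nt5e without Combo mouse 2. Cluster 8 had 3 calls without Combo mouse 1 or SHP099 mouse 2, 11 without Combo mouse 2 or 3, SHP099 mouse 3 or SX682 mouse 2, 34 without SHP099 mouse 1 and 31 without vehicle mouse 3. Cluster 2 had 7, 14 and 38 calls without Combo mouse 3, SHP099 mouse 3 and vehicle mouse 3. Cluster 3 had 7 and 3 without Combo mouse 1 and 2, and 6, 8 and 9 without SHP099 mouse 1, 2 and 3. In dividing cluster 5 the cell cycle list had a median of -0.10 with 0 of 22 genes called, and its 3 calls (Ccl6, Plek and Cebpb) were all of genes under 5% of their level elsewhere. In CD8-T-cell-like cluster 3, Cd7, an early T cell surface receptor gene, rose (log2 0.84) and Hspd1, a mitochondrial chaperone gene, fell (log2 -0.85), and both calls ended with any 1 Combo or SHP099 mouse left out. The 1 call in gamma-delta-T-cell-like cluster 9 was Cd163l1, a scavenger receptor gene of IL-17-type gamma delta cells and 1 of that cluster's own leading genes, at 67.5, 58.0 and 170.0 against 334, 382 and 526 CPM (log2 -2.16 ± 0.40, adjusted p 0.02). It ended without Combo mouse 1 or 2 or SHP099 mouse 2 or 3 (adjusted p up to 0.439).

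Genes called higher in NK-cell-like cluster 6 included Il1b, Il1r2, Cxcl2, G0s2 and Ccrl2, which neutrophils express. Il1b stood at 1165, 1012 and 978 CPM in Combo and at 107, 64.5 and 166 CPM in SHP099 mice (log2 3.30, adjusted p 5.19e-05), and Cxcl2 at 2218, 1257 and 1449 against 226, 45.1 and 196 CPM (log2 3.36, adjusted p 0.000519). The 8 neutrophil genes summed to 6000, 6960 and 6368 CPM in Combo and to 2950, 2351 and 1797 CPM in SHP099 mice in the same cells. SX682 mice had 2468, 3546 and 1476 CPM of these genes and vehicle mice 5452, 1902 and 1474 CPM. Genes called lower in cluster 6 included Rgs3 and H2-T23. Rgs3, which dampens G protein signals of chemokine receptors, had 64.1, 41.7 and 60.04 against 158, 161 and 127 CPM (log2 -1.47 ± 0.29, adjusted p 0.00292, held in 20 of 20 alternatives). H2-T23 had 187, 136 and 232 against 315, 342 and 294 CPM (log2 -0.83, adjusted p 0.0142), and its call ended without Combo mouse 2 or SHP099 mouse 1 or 2. Il2rb, a subunit of the IL-2 and IL-15 receptors, and Fyn, a Src family kinase, were named after their values were seen and fell by 0.54 and 0.59. Of the 105 calls 37 were of genes under 5% of their level elsewhere and 68 were not, and 41 genes were called with such genes left out and p-values adjusted again. There were 67, 69, 62 and 57 calls without Combo mouse 1 or SHP099 mouse 1, 2 or 3.

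In B-cell-like cluster 1, 37 genes were called lower and 86 higher. Cxcr4, the receptor for Cxcl12 that holds B cells in lymphoid tissue and bone marrow, stood at 302, 243 and 239 CPM in Combo and at 410, 545 and 521 CPM in SHP099 mice (log2 -0.91 ± 0.17, adjusted p 0.00742). Its call held in 21 of 21 alternatives. P2ry10, a lysophospholipid receptor gene, had 91, 102 and 92.8 against 182, 181 and 275 CPM (log2 -1.14, adjusted p 0.00432). Named after their values were seen, Syk and Blnk, a kinase and an adaptor of the B cell receptor, fell by 0.78 and 0.66, Tnfrsf13c, the BAFF receptor gene, by 0.86, and Cd79a, a B cell receptor subunit, by 0.36. H2-Ab1, an MHC class II gene, fell by 0.41. Of 11 tested heat shock genes 3 were called lower, Hspa1a, Hspa1b and Hsp90aa1 (log2 -1.66, -1.37 and -0.59), with 1 above 0 and a median of -0.56. Lef1, a transcription factor more usual in T cells, rose from 47.8, 45.2 and 45.5 CPM in SHP099 mice to 138, 72.5 and 153 CPM in Combo mice (log2 1.30, adjusted p 0.011). Igha was high in 2 of the 3 Combo mice (1584, 1820 and 23.9 CPM), although its call held in all 19 alternatives. Of the 123 calls 45 were of genes under 5% of their level elsewhere and 78 were not. There were 43 calls with such genes left out and p-values adjusted again, 28 with equal UMI totals, 33 and 29 without SHP099 mouse 1 or 3, 72, 60 and 66 without Combo mouse 1, 2 or 3 and 81 without vehicle mouse 1. The call of P2ry10 ended with equal UMI totals, that of H2-Ab1 without Combo mouse 3 or SHP099 mouse 1 or 3, and that of Lef1 ended without Combo mouse 1 or SHP099 mouse 1 or 3.

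In macrophage-like cluster 15, led by complement genes C1qa, C1qb and C1qc, 2 genes of dividing cells were called higher. Top2a, the topoisomerase of dividing cells, stood at 69.0, 70.9 and 58.8 CPM in Combo and at 20.6, 19.8 and 4.40 CPM in SHP099 mice (log2 2.06 ± 0.40, adjusted p 0.049), and Stmn1 at 218, 159 and 167 against 101, 53.3 and 24.2 CPM (log2 1.61, adjusted p 0.049). Of 22 cell cycle genes 21 had log2 values above 0 (median 1.16), and these 2 were called. SX682 mice had 30.7, 79.7 and 60.2 CPM of Top2a and vehicle mice 46.6, 47.9 and 45.6 CPM, so the low SHP099 mice stood apart here too. Both calls ended with any 1 Combo mouse left out (adjusted p up to 0.243). Cluster 15 had between 2 and 5 calls without Combo mouse 1 or 2, SHP099 mouse 2 or 3, SX682 mouse 2 or vehicle mouse 1 or 2, and 35 without SHP099 mouse 1. In alveolar-macrophage-like cluster 26 the same list had 1 of 22 genes above 0, 0 called and a median of -0.49, with Top2a at 47.1, 39 and 24.1 against 62.9, 65.2 and 52.3 CPM (adjusted p 0.352). The difference between the 2 clusters was not tested.

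Cxcl2 rose in 2 macrophage clusters, at 2482, 1724 and 2043 CPM in Combo against 895, 1429 and 955 CPM in SHP099 mice in cluster 15 (log2 0.92, adjusted p 0.049) and at 467, 629 and 473 against 308, 235 and 223 CPM in cluster 26 (log2 1.02, adjusted p 0.00113). The first call ended in 8 of 20 alternatives (adjusted p up to 0.243), among them each fit without a Combo mouse or SHP099 mouse 1 or 3, and the second held in 20 of 20. In cluster 26 its level is under 5% of that in neutrophil-like cluster 29, which reached 39210 CPM over all mice. The same holds for all 12 genes called higher in cluster 26, among them Ccl4, Krt8, Igha and Scgb1a1. Lars2, a mitochondrial tRNA synthetase gene, fell there from 2812, 2824 and 2629 CPM in SHP099 mice to 1377, 1379 and 1597 CPM in Combo mice (log2 -0.93, adjusted p 4.31e-06). It was also called lower in clusters 6, 8, 15, 19 and 23. The Lars2 call in cluster 26 held in 21 of 21 alternatives. The noncoding gene Gm42418 was called lower in cluster 26 as well (log2 -0.77, adjusted p 0.000685, edgeR). It was also called lower in clusters 1, 2, 6, 15, 19, 23 and 25. Both genes were highest in unnamed cluster 27, and what their shared pattern comes from was not tested.

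Monocytes and dendritic cells had few calls. In classical-monocyte-like cluster 13 S100a9, a calcium-binding alarmin of neutrophils and monocytes, stood at 4943, 3412 and 7129 CPM in Combo and at 1923, 2112 and 1165 CPM in SHP099 mice (log2 1.55, adjusted p 0.00607, held in 20 of 20 alternatives), and S100a8 rose as well (log2 1.17). Both are under 5% of their level in a neutrophil cluster, as are 5 of the 6 genes called in cluster 13. That count was 3 without Combo mouse 3 or any SHP099 mouse and 14 without SX682 mouse 1. The 8 neutrophil genes summed to between 17930 and 24860 CPM in Combo and between 9746 and 13660 CPM in SHP099 mice there. Ccl5 was called higher in type 2 dendritic-like cluster 19 (log2 2.87, adjusted p 0.0468), a call that ended in 11 of 19 alternatives. In mature-dendritic-like cluster 17 the 1 call was Scgb1a1, at 20.7, 49.1 and 49.5 CPM on unscaled totals against 0 in each SHP099 mouse. Monocyte-like cluster 12, where 1 vehicle mouse with 6 cells did not enter the fit, and type 1 dendritic-like cluster 18 had 0 calls.

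Genes of the 2 drug axes changed in few cell types. Ptpn11, which encodes the target of SHP099 (chromosome 5, 121130533 to 121191397), was called in no cluster, with log2 differences of -0.08 in cluster 21 (adjusted p 0.93) and 0.31 in cluster 23 (adjusted p 0.25). Cxcr1 and Cxcr2, the targets of SX682, were called in none of the clusters in which they were tested. Alveolar-macrophage-like cluster 26 had Cxcr1 at 147, 140.2 and 107 CPM in Combo and 132, 129 and 113 CPM in SHP099 mice (log2 0.08). These levels were above those of the same mice over all neutrophils. Cxcr2 averaged 22.27 CPM in Combo and 28.05 CPM in SHP099 mice in cluster 26, below its level over all neutrophils. Among the ligands Cxcl2 was called higher in clusters 2, 6, 15 and 26, Cxcl3 in cluster 15, Cxcl1 in cluster 23 and Cxcl5 in cluster 21. Cxcl2 had log2 values above 0 in 22 of the 26 clusters in which it was tested.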

How the data were processed

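Gene expression was measured by droplet single-cell RNA sequencing of tumour nodules with a 10x V(D)J kit of version v1.1, per the labels' protocols. The deposited matrix holds raw UMI counts per gene and cell, aligned to mm10 and made with Cell Ranger per the submitters' processing notes, and the authors' deposited tables give each cell its mouse, cluster and state. Neither its version nor the annotation is stated there. No cell has fewer than 500 UMIs or a mitochondrial share over 20%. No doublet caller was run here, and the submitters' treatment of doublets is not given in the sources used here. Hashtags separated the mice of each pool.

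UMI counts were summed per mouse and cluster where each Combo and SHP099 mouse had 10 or more cells. The mice of all 4 treatments entered 1 edgeR 4.0.16 quasi-likelihood fit per cluster (TMM scaling, filterByExpr, two-sided, Benjamini-Hochberg within the cluster, adjusted p below 0.05) in R 4.3.3. The standard error is the log2 fold change over the square root of F. Shares were tested the same way on cell counts, beside exact permutation tests. The labels call the 3 mice of a treatment replicates. The edgeR p-values set the Combo minus SHP099 difference against the spread between such mice, estimated over the 4 treatments. With 1 capture per treatment, that spread holds no variation between captures. Scripts were tested on simulated data. Alternatives were limma 3.58.1 on logit shares, DESeq2 1.42.0, other size factors, no filter, a level filter, equal UMI totals, free RNA genes left out (under 5% of their level in another cluster), 30 cells per mouse, a replicate block, Combo and SHP099 mice alone, and each mouse left out.

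The members and gene lists were chosen with earlier results of these data known. Genes were named by a rule: up to 5 per direction and cluster by fold among called genes of average log2 CPM of 5 or more without overlap, up to 4 called genes per list, the drug axis genes, and up to 10 per direction by number of clusters called. The text uses part of them and says where a gene was named outside the rule. Coordinates are from GENCODE on mm10, with all 164 named genes matched.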

Additional observations from a re-analysis of the deposited data

Results flagged for a closer look

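For 3 genes the Combo mice lay above the SHP099 mice in 1 cluster and below them in another, every mouse of a group on the same side. The difference between clusters was not tested, and the clusters share their mice and captures. H2-Ab1, an MHC class II gene, had a log2 fold change of -0.41 in B-cell-like cluster 1 and of 1.15 in neutrophil-like cluster 30. Ifi27l2b, an interferon-induced gene, had -0.99 in tumour-like cluster 21 and 3.88 in cluster 30. Its levels in cluster 30 were 26.1, 47 and 9.85 CPM in Combo and 0, 4.01 and 0 CPM in SHP099 mice, under 5% of its level in another cluster. Lgals2, a galectin gene and a leading gene of tumour-like cluster 23, had -0.48 in that cluster, 2.33 in cluster 26, 1.98 in cluster 28 and 2.4 in cluster 30. It was highest in cluster 23 (4152 CPM over all mice), and its level in cluster 26 was under 5% of that in another cluster. What free RNA of tumour-like cells adds to its levels in clusters 26, 28 and 30 was not tested.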

How the results depend on the processing

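No result changed direction among the alternatives run. Of 397 results for named genes 168 kept their direction and side of the threshold under every alternative. The 617 calls over all clusters became 933 with Combo and SHP099 mice alone, 352 with equal UMI totals, 277 with free RNA genes left out, 2958 with no filter on low counts, 374 with p-values adjusted over all clusters together, and 305 to 744 with 1 mouse left out. The 88 calls in neutrophils became 42 at an average log2 CPM of 5 or more, 12 with equal UMI totals, 3 with free RNA genes left out, 282 with no filter, and 42 to 106 with 1 mouse left out. The 138 calls in T cells became 36, 76 and 425 with equal UMI totals, free RNA genes left out and no filter, and 47 to 163 with 1 mouse left out. The 3 clusters with a differing share became 7 with Combo and SHP099 mice alone and 1 to 5 with 1 mouse left out. The 2 T cell states became 3 without SHP099 mouse 2. The cause of these changes was not tested.

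The replicate block gave 232 calls in T cells, 695 over all clusters, 80 in neutrophils and 5 clusters with a differing share. The numbers do not pair the mice: of 87 correlations of same-numbered deviations, from -0.212 to 0.192, 3 were above 0.1 and 45 below 0. The SHP099 mice had 4 to 7 cells each in cluster 20 and 15 to 31 in cluster 21, which limits the depth there.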
